A study of Mus musculus with 6 samples.

Results

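Cytosolic ribosomal protein genes encode the proteins of the large (60S) and small (40S) subunits of the ribosome that translates messages in the cytoplasm. Members were taken by symbol from the deposited gene table: Rpl or Rps followed by a number and optionally by a, x or l and a further digit, together with Rplp0, Rplp1, Rplp2 and Rpsa, leaving out names with -ps and the S6 kinases. The rule gave 89 of 53670 genes, 53 of the large subunit and 36 of the small one. RNA of isolated pancreatic islets was sequenced from mice aged 6 weeks, in 3 Paupar -/- (KO) and 3 Paupar +/+ (WT) libraries. Paupar is a long noncoding RNA gene next to Pax6. The comparison asks which islet transcripts differ when it is missing.

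Ribosomal protein messages are among the most abundant in any cell, and most of the proteins are needed in equal numbers in each ribosome. In mammals many of these messages begin with a 5′ terminal pyrimidine tract (TOP), a run of C and T bases right at the start site, through which mTOR signalling and the binding protein LARP1 control their translation together. Insulin-secreting beta cells make secreted protein at a very high rate and depend on this machinery. Mammalian ribosomal protein genes are also known for their many processed pseudogenes, intronless copies of the message inserted elsewhere in the genome, some of which are nearly identical to the gene.

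KO libraries held 4, 0 and 4 Paupar counts, against 177, 252 and 111 in WT libraries. Total counts per library ran from 26915566 to 27285009 in KO and from 25733194 to 26969781 in WT. The chi-square divided by its degrees of freedom, which counting noise alone would hold near 1, was 27.1 to 89.4 between libraries of the same genotype and 28.2 to 133 across genotypes. Whether each replicate is another animal is not in the labels, and p-values therefore reflect only the spread among these libraries, which could in part be technical. KO replicates 2 and 3 carried the female transcript Xist (1120 and 862 counts) and almost no Y-linked Ddx3y (2 and 0). KO replicate 1 and the 3 WT libraries showed 0 to 6 Xist counts and 1316 to 1830 Ddx3y counts. By these transcripts KO replicate 1 did not share an animal with KO replicates 2 and 3. Whether KO replicates 2 and 3, or the WT libraries, came from different animals is not known. All 10 beta cell markers were found, and together they took 27.4% to 27.6% of the counts in KO and 21.5% to 24.5% in WT. The 7 alpha cell markers took 3.08% to 3.60% in KO and 3.70% to 4.52% in WT. The 10 endothelial markers summed to 589 to 609 CPM in KO and 412 to 520 CPM in WT. For the beta cell, alpha cell and endothelial markers alike the KO and WT ranges did not overlap, and their part in the results was not tested. Of 30 acinar markers (digestive enzymes of the exocrine pancreas) 28 were found, none at 0 throughout, with 2.20% to 5.68% of the counts in KO and 3.18% to 9.46% in WT. In such bulk samples fewer cells of a type and less RNA per cell cannot be told apart.

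As a group the ribosomal protein messages were at nearly the same level in KO and WT islets. They took 1.470%, 1.473% and 1.409% of all counts in KO replicates 1 to 3, and 1.437%, 1.496% and 1.486% in WT replicates 1 to 3. The means were 1.451% ± 0.0363 in KO and 1.473% ± 0.0314 in WT (SD, n = 3 each), and the groups overlapped. When the 10 most abundant genes of the table were left out of the total, the shares became 2.26%, 2.25% and 2.13% in KO and 2.08%, 2.21% and 2.18% in WT, so the sign of the difference turned while the groups still overlapped. The ratio of large to small subunit counts was 1.245, 1.305 and 1.301 in KO and 1.271, 1.307 and 1.301 in WT. The proportion of the subunits thus lay between 1.245 and 1.307 in the 6 libraries, and the genotypes overlapped.

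Of the 89 members, 84 had enough counts to be tested (49 large and 35 small subunit genes). The count models of edgeR's quasi-likelihood test, adjusted by Benjamini-Hochberg over all 15915 tested genes, called 0 of these 84 at an adjusted p below 0.05, against a background of 0.17% of all tested genes, all 27 of which were lower in KO (0 of 15915 were called higher). At an unadjusted p below 0.05 there were 5 members (5.95%, against a background of 16.4%), 4 of them higher in KO (background 6.99%) and 1 lower (background 9.38%). DESeq2 called 0 members and 553 of the 27653 genes it fitted. With limma-voom 0 of all 15915 genes were called, so its 0 members cannot set them apart from other genes. Most of the 84 intervals were narrow. For 73 of them (86.9%) the 95% interval of the KO over WT ratio lay wholly within 1.5-fold, against 52.6% of all tested genes and 83.1% of the 6944 other genes at member levels.

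**Figure D1:**
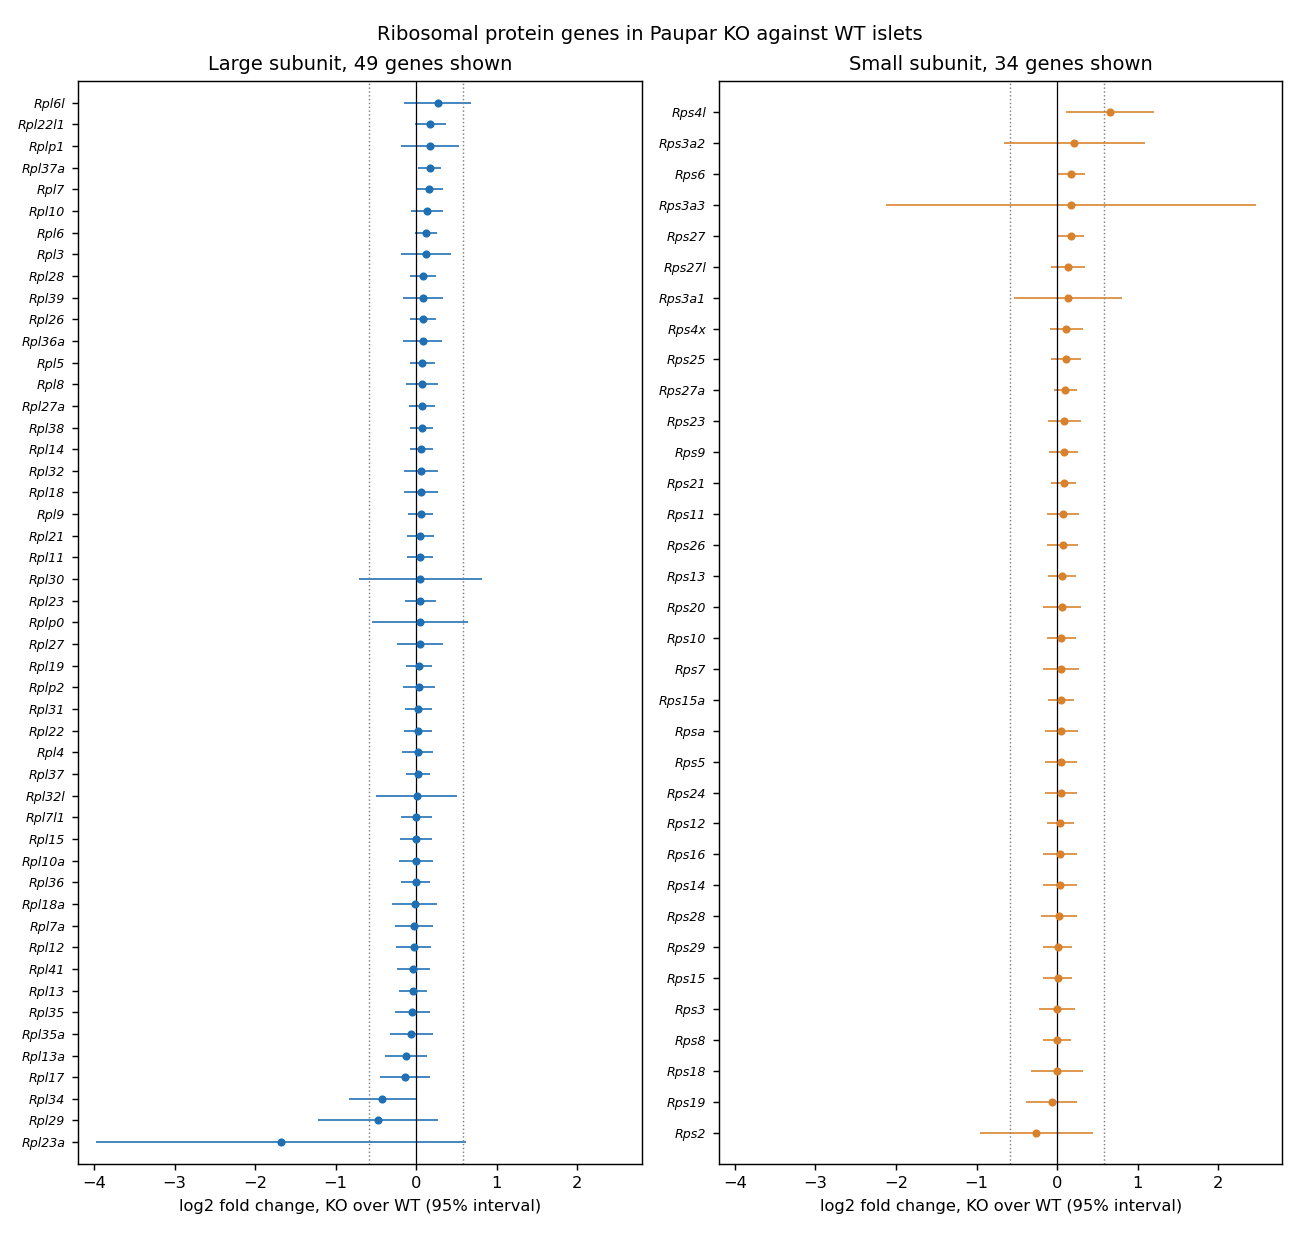
Log2 fold change of KO over WT (point) with its 95% interval (line) for the tested ribosomal protein genes shown, large subunit on the left and small subunit on the right. The dotted lines mark 1.5-fold; most intervals lie between them, and the widest belong to Rpl23a and Rps3a3.

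The median log2 fold change of KO over WT was 0.05 (quartiles 0.01 to 0.08), beside 0.00 for all tested genes, and 60 of the 84 lay within 0.1 of 0. With libraries scaled by TMM, which sets the scale from the bulk of genes rather than from the total, 65 members were above 0 and 19 below, whereas 50.3% of all genes were above 0. With total counts alone 26 of 84 were above 0 (median -0.02), but that scaling lowered all genes together (median -0.08), and the members' median stayed 0.05 above that of all genes under both scalings. With smooth offsets for exonic length and GC content 29 of 81 were above 0 and the members' median of -0.02 lay below that of all genes (0.00). Ribosomal protein messages are short, with a median exonic length of 1434 bases over the tested members, against 3522.5 over the tested genes. The large subunit median was 0.05 with 35 above and 14 below 0, and the small subunit median was 0.06 with 30 above and 5 below. The difference in medians, large minus small, was -0.01, and leaving out single libraries kept it between -0.04 and -0.0018.

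By library, the median deviation of the 84 members from their own 6-library mean was 0.09, 0.03 and -0.03 in KO replicates 1 to 3 and -0.01, -0.03 and -0.05 in WT replicates 1 to 3 on the log2 scale. KO replicate 3 lay among the WT libraries, so the groups overlapped. KO replicate 1 stood highest for both subunits, at 0.07 for the large and 0.12 for the small one. In each genotype the library with the most acinar RNA had the highest ribosomal protein median and the library with the least had the lowest. This was also the order of the replicate numbers. For the large subunit alone it did not hold in WT, where replicate 2 was lowest at -0.04 and replicate 3 stood at -0.02. Nor did the order hold across the 6 libraries. WT replicate 1 had the most acinar RNA, yet its median over the 84 members lay below those of KO replicates 1 and 2. With the acinar level as a covariate the median fold change over members was 0.09, with 73 of 84 above 0 and 0 called.

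**Figure D2:**
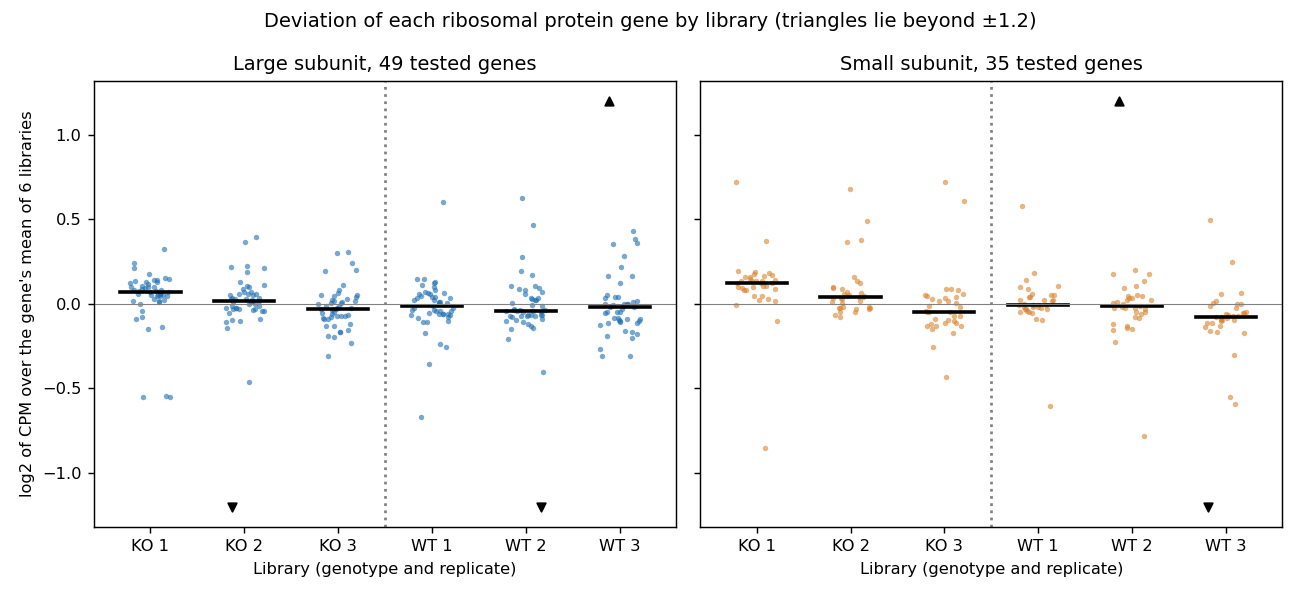
Log2 ratio of each member's CPM (counts scaled to the library's TMM-adjusted total) to its mean over the 6 libraries, one point per gene and library, with large subunit genes on the left and small subunit genes on the right; bars are medians and triangles mark points beyond the axis. The medians run from 0.07 to -0.04 in the large and from 0.12 to -0.08 in the small subunit, and KO replicate 3 lies within the WT range in both.

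The largest difference upward was that of Rps4l, an autosomal relative of the X-linked Rps4x that encodes a small subunit protein. Rps4l (chr6:148303178-148304120, mm9) stood at 30.7, 38.3 and 45.3 CPM (TMM-scaled counts, not corrected for length) in KO, against 19.6, 32.7 and 20.3 CPM in WT. WT replicate 2 lay above KO replicate 1, so the groups overlapped. KO over WT was 0.66 on the log2 scale (SE 0.23) and did not pass edgeR's test (adjusted p = 0.247). Rps4x (chrX:99380280-99384733), the main gene for this protein, averaged 406 ± 28.2 CPM in KO and 375 ± 21.4 CPM in WT (SD, n = 3 each), with overlapping groups and a KO over WT value of 0.11 on the log2 scale (SE 0.09, edgeR adjusted p = 0.567). Per kilobase of transcript, Rps4l averaged 40.4 CPM in KO and 25.6 CPM in WT, and Rps4x 416 and 385 CPM in KO and WT.

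In 9 members every KO library lay above every WT library, and in 0 members below. This is 10.7% of the tested members, against 23.4% of all tested genes (11.3% with KO above and 12.1% with KO below). Among the 9 were Rpl5, Rpl6, Rpl7, Rpl22l1 and Rpl37a of the large subunit and Rps6, Rps27 and Rps27a of the small one, with log2 fold changes of 0.08 to 0.18.

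Rps6, the small subunit protein phosphorylated by the S6 kinases downstream of mTOR, was at 253, 228 and 231 CPM in KO and at 210, 201 and 220 CPM in WT (chr4:86500564-86503316). Its lowest KO value was close to its highest WT value, and 0.18 on the log2 scale (SE 0.07) did not pass (edgeR adjusted p = 0.308). Rps27, a small subunit protein with a zinc finger, was at 220, 197 and 203 CPM in KO and at 183, 184 and 185 CPM in WT (chr3:90016593-90017573). The WT libraries differed from each other by about 1 CPM for this gene, and the log2 fold change was 0.17 (SE 0.07, edgeR adjusted p = 0.288).

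Rpl37a, a small zinc-binding protein of the large subunit, had 93.4, 93.3 and 96.2 CPM in KO and 88.0, 81.8 and 82.2 CPM in WT (chr1:72757834-72760383). Its log2 fold change of 0.17 (SE 0.06) gave an edgeR adjusted p of 0.257. Rpl7 (chr1:16091376-16094743), also of the large subunit, had 359, 331 and 345 CPM in KO and 313, 306 and 304 CPM in WT, or 0.17 on the log2 scale (SE 0.07, edgeR adjusted p = 0.299). Rpl22l1 (chr3:28704358-28706274), a paralog of Rpl22, had 45.9, 50.3 and 44.8 CPM in KO and 42.8, 38.1 and 43.6 CPM in WT (log2 fold change 0.18, SE 0.08, edgeR adjusted p = 0.350). In each of these 5 genes the groups were apart, by at most 0.18 on the log2 scale.

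Rpl5, which joins the 5S RNA and Rpl11 in a particle that binds the p53 regulator MDM2, was at 319, 311 and 311 CPM in KO and 296, 289.5 and 305 CPM in WT, or 0.08 on the log2 scale (SE 0.07, edgeR adjusted p = 0.597). Rps27a, which is made as a fusion with ubiquitin, was at 0.10 (SE 0.06, edgeR adjusted p = 0.453) on the log2 scale. The proteins of the ribosomal stalk, which recruits elongation factors, did not pass the test: Rplp1 was at 0.17 (SE 0.15, 95% interval -0.19 to 0.53), Rplp0 at 0.05 (SE 0.25, interval -0.55 to 0.64) and Rplp2 at 0.04 (SE 0.09). Rpsa, the laminin receptor homologue of the small subunit, was at 0.05 (SE 0.09).

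At the low end, Rpl34 of the large subunit was at 62.4, 62.1 and 55.4 CPM in KO and 58.1, 94.7 and 88.0 CPM in WT (chr3:130429749-130433316). WT replicate 1 lay among the KO libraries, and -0.42 on the log2 scale (SE 0.18) did not pass (edgeR adjusted p = 0.302). Rpl29 was at 15.7, 16.7 and 28.4 CPM in KO and 18.0, 35.5 and 31.0 CPM in WT, with overlapping groups and -0.47 on the log2 scale (SE 0.31, edgeR adjusted p = 0.504). Rps2 was at 65.5, 166 and 105 CPM in KO and 127, 133 and 140.5 CPM in WT. The 3 WT libraries were close together for Rps2 and the KO libraries wide apart, and KO over WT was -0.25 on the log2 scale (SE 0.30, edgeR adjusted p = 0.711). Rpl23a, of the large subunit, was the lowest of all at -1.68 (SE 0.97, edgeR adjusted p = 0.443), with 1.10, 0.267 and 1.40 CPM in KO and 1.72, 0.446 and 6.75 CPM in WT. Its groups overlapped, and WT replicate 3 stood far above the other libraries. Rpl17, Rpl13a, Rps19 and Rpl35a completed the 8 lowest, at -0.14 to -0.06.

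Of the 7 paralogs, genes that encode a close relative of a core ribosomal protein, 4 were tested, and their median log2 fold change of 0.16 became -0.02 with length and GC offsets. Beside Rps4l and Rpl22l1 these were Rps27l, a p53-responsive relative of Rps27, at 0.14 (SE 0.09, edgeR adjusted p = 0.491), and Rpl7l1, a relative of Rpl7, at 0.00 (SE 0.08, edgeR adjusted p = 0.988). Their parent genes Rpl22, Rps27 and Rpl7 were at 0.02, 0.17 and 0.17. Rpl10l and Rpl39l, which in mice are known from male germ cells, had 0 counts in every library. The muscle paralog Rpl3l had 0, 0 and 3 counts in KO and 0, 2 and 1 in WT. A count of 0 allows up to 3 counts, or 0.110 to 0.117 CPM in these libraries, counting error only. Rps12l1 had 0 counts throughout, and Rpl24 had 9, 8 and 7 counts in KO and 11, 9 and 14 in WT, so these 5 members were not tested.

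Levels between members were compared per kilobase of 1 GENCODE vM1 transcript each, which 81 tested members had. The median was 210.3 CPM per kb with quartiles of 133 and 309, at a median of 180 for the 46 large and 255 for the 35 small subunit genes. The highest were Rplp1, at 725 CPM per kb in KO and 644 in WT, and Rps24, at 598 in KO and 578 in WT. Rps27 and Rpl10 followed. The lowest were Rps3a2 at 0.781 CPM per kb in KO and 0.671 in WT, Rpl23a at 1.65 in KO and 5.31 in WT, Rpl13a at 9.37 in KO and 10.2 in WT, and Rpl7l1 at 23.4 in KO and 23.3 in WT. Rpl23a, Rpl13a and the untested Rpl24 encode core proteins of the large subunit, yet were counted far below most members, and the reason was not tested.

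**Figure D3:**
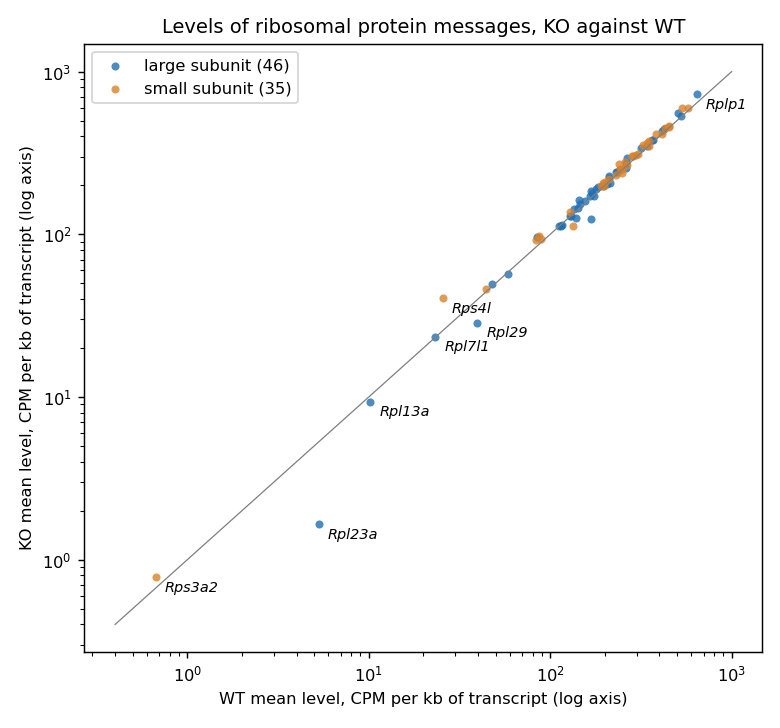
Mean level per kilobase of transcript in KO (vertical, log axis) against WT (horizontal, log axis) for 81 tested ribosomal protein genes, with the line of equal levels. Most points lie on the line between 100 and 600 CPM per kb; Rpl23a, at 1.65 in KO and 5.31 in WT, lies farthest from it.

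Most members kept nearly the same level over the 6 libraries, and a few differed several-fold between libraries of the same genotype. The ratio of the highest to the lowest library had a median of 1.2, and 11 of the 84 (13.1%) reached 1.5 or more, against 20.6% of the other genes at member levels. The largest ratios were 51.1 for Rps3a3, 25.2 for Rpl23a, 2.53 for Rps2, 2.43 for Rps3a1, 2.32 for Rps4l, 2.27 for Rpl29, 2.09 for Rpl30 and 1.89 for Rplp0. Several of these genes have near-identical copies in the genome. The coding sequences of 86 members were searched against mm9, and 79 had at least 1 other locus matching 80% or more of the sequence at 95% identity or more. There were 628 such loci, with a median of 6 per member, and 19 members had 10 or more, led by Rpl21 with 56, Rpl7a with 32, Rps2 with 29 and Rpl29 with 28.

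How few bases tell a gene from its copy is shown for 3 pairs in which the copy's count differed several-fold between libraries. Each is a 90-base window of the coding sequence, read 5′ to 3′ on the coding strand from mm9, and capitals mark the bases that differ within a pair. The Rplp0 window covers coding bases 365 to 454 and the Gm8730 window lies at chr8:105389245-105389334 (minus strand); over the 954 coding bases they differ at 12. The Rps3a1 window covers coding bases 193 to 282 and that of Rps3a3 lies at chr13:109460989-109461078 (plus strand), with 9 differences in 795 bases. The Rpl15 window covers coding bases 288 to 377 and that of Rpl15-ps2 lies at chr9:71909029-71909118 (plus strand), with 8 differences in 615 bases.
Rplp0: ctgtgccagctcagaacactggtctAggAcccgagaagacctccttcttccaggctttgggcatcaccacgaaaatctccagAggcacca
Gm8730: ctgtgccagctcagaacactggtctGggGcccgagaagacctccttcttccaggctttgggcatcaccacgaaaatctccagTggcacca
Rps3a1: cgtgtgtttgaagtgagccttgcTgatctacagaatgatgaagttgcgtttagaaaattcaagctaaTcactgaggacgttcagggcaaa
Rps3a3: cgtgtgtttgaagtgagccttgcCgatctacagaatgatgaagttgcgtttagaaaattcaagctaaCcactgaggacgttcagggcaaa
Rpl15: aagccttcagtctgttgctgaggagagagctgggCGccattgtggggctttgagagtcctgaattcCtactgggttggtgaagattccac
Rpl15-ps2: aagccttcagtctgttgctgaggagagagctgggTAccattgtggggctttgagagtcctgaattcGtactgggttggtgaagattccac

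Rplp0, the scaffold of the ribosomal stalk (chr5:116009476-116013736), was at 313, 590.5 and 527 CPM in KO and 462, 554 and 369 CPM in WT. Its copy Gm8730 had 3755, 294 and 329 counts in KO and 1928, 279 and 1543 counts in WT. A further copy, Gm9625, had 1457, 34 and 26 counts in KO and 805, 29 and 628 in WT. The libraries low for Rplp0 (KO replicate 1 and WT replicates 1 and 3) were those high for both copies, and they belong to both genotypes. Summed with its copies, Rplp0 varied 1.34-fold over the libraries in place of 1.89-fold, and its log2 fold change was 0.07 (SE 0.12, edgeR adjusted p = 0.817) in place of 0.05 (SE 0.25, edgeR adjusted p = 0.948).

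Rps3a1 (chr3:85941862-85946624), the main gene for a small subunit protein, was at 355, 344 and 342 CPM in KO and 310, 186 and 452 CPM in WT. Rps3a3, its intronless relative on chromosome 13, was at 84.8, 82.4 and 84.9 CPM in KO and 76.7, 144 and 2.82 CPM in WT. WT replicate 3 was thus highest for Rps3a1 and lowest for Rps3a3, and WT replicate 2 the reverse. The summed Rps3a family varied 1.37-fold and stood at 0.14 on the log2 scale (SE 0.12, edgeR adjusted p = 0.603).

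Rpl15 itself varied 1.16-fold, while its copy Rpl15-ps2 had 345, 7 and 4 counts in KO and 333, 3 and 275 in WT, and another copy, Gm10020, had 191, 19 and 10 in KO and 187, 12 and 151 in WT. Both copies were thus high in the same 3 libraries as those of Rplp0. Rpl30 was at 62.8, 121 and 109 CPM in KO and 57.8, 105 and 120 CPM in WT. Its copy Gm12191 had 195, 6 and 8 counts in KO and 161, 10 and 6 in WT, high in the libraries where Rpl30 was low, but the family sum still varied 1.87-fold. Of 386 deposited copies outside the rule, 46 reached 100 counts in a library, and in 11 of these the highest library had at least 5 times the count of the lowest.

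**Figure D4:**
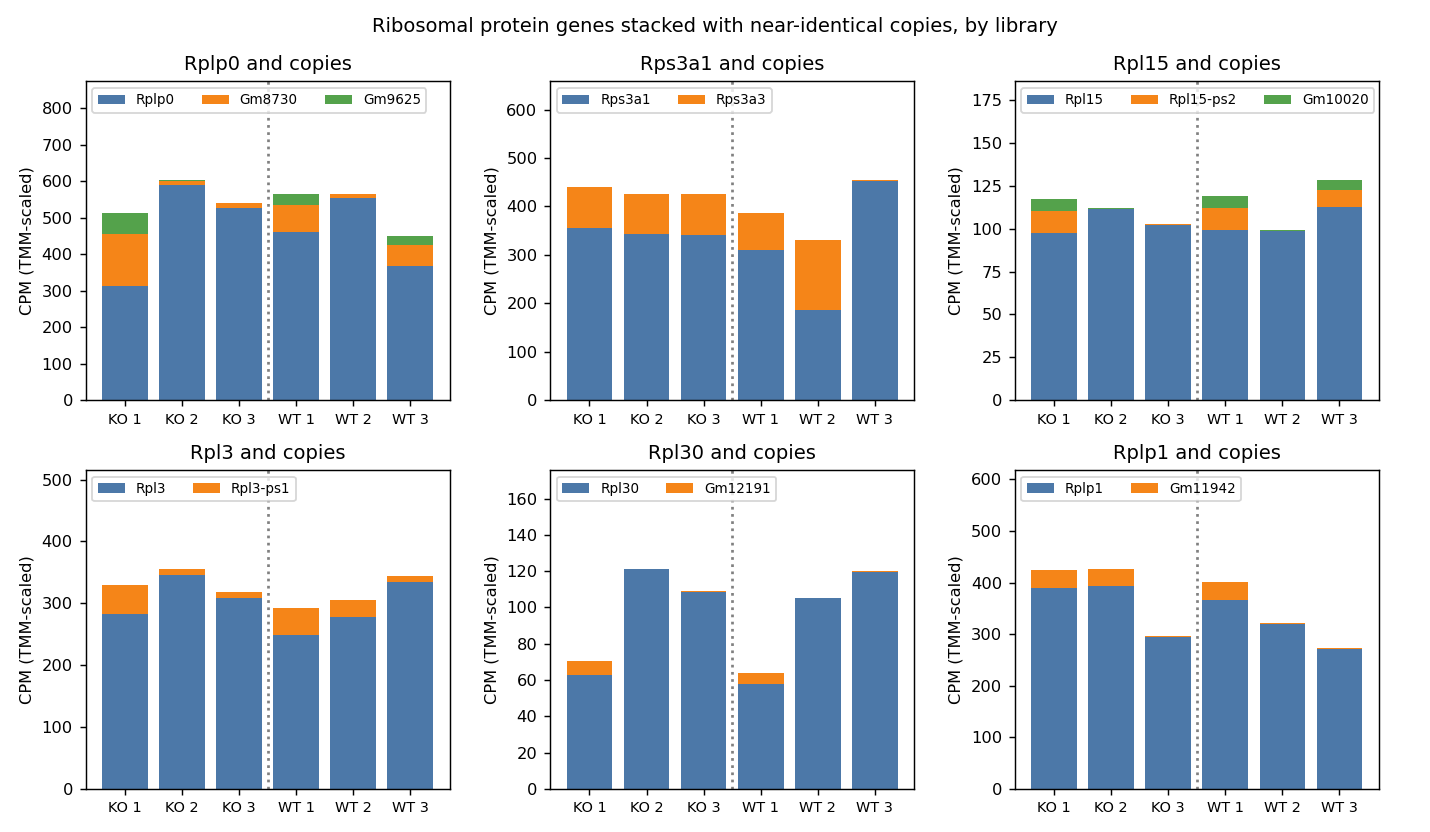
CPM (TMM-scaled, from 0) of 6 ribosomal protein genes stacked with their most variable near-identical copies in the 3 KO libraries (left of the dotted line) and the 3 WT libraries. The Rplp0 copies are high in KO replicate 1 and WT replicates 1 and 3, and Rps3a3 is nearly absent in WT replicate 3.

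Summed with their copies, 7 of 82 families reached a ratio of 1.5 between libraries, against 11 of 84 single members. Rpl23a with its copies held 637, 498 and 608 counts in KO and 622, 535 and 722 in WT and varied 1.41-fold in place of 25.2-fold. Its log2 fold change was then -0.08 (SE 0.14) in place of -1.68 (SE 0.97), with edgeR adjusted p of 0.819 and 0.443. Rpl34 stayed at -0.37 (SE 0.15, edgeR adjusted p = 0.288), and Rps2, at -0.17 (SE 0.25), still varied 2.15-fold. Rps4l has no such copy and was unchanged at 0.66. In this fit 0 members were called and the median was 0.05. No source used here says how reads that match several loci were counted, and the part of such reads in these shifts was not tested.

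The start sites of the members were read from RefSeq (GRCm38.p6), where 64 had an entry. A C at the annotated start followed by at least 4 further C or T bases, read on the strand of the gene with that position fixed, was found in 14 of the 64 (21.9%), beside 813 of 27025 genes (3.01%). It was found in 8 of 40 large subunit genes (20%) and 6 of 24 small subunit genes (25%). Rps6 and Rps27, in which KO lay above WT, and Rpl15, in which the groups overlapped, are shown as examples of the tract. Each line has 20 bases before the start and 20 from it on, with the tract in capitals, from chr4:86857348-86857387, chr3:90213629-90213668 and chr14:18270967-18271006, all on the minus strand of GRCm38.p6.
Rps6: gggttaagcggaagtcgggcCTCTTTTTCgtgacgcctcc
Rps27: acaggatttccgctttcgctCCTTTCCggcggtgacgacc
Rpl15: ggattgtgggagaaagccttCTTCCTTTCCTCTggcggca

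The median log2 fold change was 0.05 over the 14 tested members with a tract at the annotated start and 0.05 over the 46 without one. An annotated start can lie a few bases from the one used in islets, so a missing match says only that these letters do not stand at that position.

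Other genes of the translation machinery were read from lists chosen with these results known, and 0 of their members passed edgeR's test over all genes. Of 15 tested genes for elongation factors and other TOP messages, 14 were above 0 (median 0.14; 0.06 with total count scaling and 0.11 with length and GC offsets), and in 7 every KO library lay above every WT library (46.7%, against 11.3% of all tested genes). Eef1a1, which brings aminoacyl-tRNA to the ribosome and is the most abundant of the 15, was at 2991, 3050 and 3014 CPM in KO and 2575, 2595 and 2581 CPM in WT. These groups were well apart, at 0.22 on the log2 scale (SE 0.10), which did not pass (edgeR adjusted p = 0.329). Its exchange factor subunits Eef1b2, Eef1d and Eef1g were at 0.12, 0.10 and 0.15.

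Of 29 tested initiation factor genes 26 were above 0 (median 0.11; 0.04 with total count scaling and 0.05 with the offsets), among them Eif1 at 0.09, Eif1ax at 0.09, and the eIF2 subunit genes Eif2s1 at 0.18 and Eif2s2 at 0.02. In 9 every KO library lay above every WT library (31.0%, against 11.3% of all tested genes) and in 3 below (10.3%, against 12.1%). Those 3 were chosen after their values were seen. The scaffold genes Eif4g1 and Eif4g3 were at -0.36 (SE 0.07, edgeR adjusted p = 0.121) and -0.37 (SE 0.10, edgeR adjusted p = 0.171). Eif5b, for subunit joining, was at -0.34 (SE 0.12, edgeR adjusted p = 0.263). Among the 9, and also so chosen, was the eIF2 subunit gene Eif2s3x, highest of the 29 at 0.61 (SE 0.15, edgeR adjusted p = 0.154). It stood at 49.7, 72.6 and 67.9 CPM in KO and 43.2, 38.0 and 43.0 CPM in WT. Its highest libraries, KO replicates 2 and 3, were those that carried Xist, and there sex and genotype cannot be told apart. The 38 ribosome assembly genes had a median of 0.03, with 23 above and 15 below 0, but -0.01 with the offsets and, beside an all-gene median of -0.08, -0.04 with total count scaling. Their box C/D proteins Nop56, Nop58 and Fbl were at -0.17, 0.08 and 0.02, and Dkc1, the pseudouridine synthase, at 0.02. The 14 RNA polymerase I genes, which make the ribosomal RNA precursor, had 7 above and 7 below 0 (median -0.01; -0.09 with total count scaling and -0.01 with the offsets, but 0.06 with the acinar covariate). The subunit genes Polr1a, Polr1b, Polr1c and Polr1d were at 0.13, 0.10, 0.05 and 0.19. In 5 of the 14 every KO library lay below every WT library (35.7%, against 12.1% of all tested genes). In 2 every KO library lay above (14.3%, against 11.3%). Those 5 with KO below were chosen after their values were seen. Taf1d at -0.997 (SE 0.17, edgeR adjusted p = 0.0935), Taf1a at -0.46 and Taf1c at -0.42 encode parts of the promoter selectivity factor. The others were the polymerase subunit gene Cd3eap at -0.40 and the transcription factor gene Ubtf at -0.20.

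Of 26 genes for mTOR, its partners, the S6 kinases and other regulators, 19 were below 0. The median of the 26 was -0.11, or -0.18 with total count scaling and -0.07 with the offsets. In 9 every KO library lay below every WT library (34.6%, against 12.1% of all tested genes). In 1, Rheb, every KO library lay above (3.85%, against 11.3%). Rheb, the GTPase that activates mTOR complex 1, was at 0.14. Mtor, the kinase itself, was at -0.07 (SE 0.09) and Mlst8 at -0.06 (SE 0.11), while Rptor, the scaffold of mTOR complex 1, was at -0.22 (SE 0.08, edgeR adjusted p = 0.259) and Rictor, that of complex 2, at -0.14 (SE 0.07, edgeR adjusted p = 0.384). Rheb, the TOP-binding protein gene Larp1 and the S6 kinase gene Rps6kb1 were chosen after their values were seen. Larp1 was at 101, 90.3 and 104.5 CPM in KO and 145, 130 and 128 CPM in WT, with groups apart. Its -0.45 on the log2 scale (SE 0.08) did not pass (edgeR adjusted p = 0.109). Rps6kb1 was at 28.6, 25.4 and 27.4 CPM in KO and 33.1, 31.3 and 31.1 CPM in WT, or -0.23 on the log2 scale (SE 0.08, edgeR adjusted p = 0.226).

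Ribosomal proteins that the symbol rule leaves out gave 5 tested genes with 0 called, and their median was 0.06, or -0.01 with total count scaling. Fau, which encodes a small subunit protein fused to a ubiquitin-like domain, was at 0.04 (SE 0.10), and Rack1, the scaffold on the small subunit, at 0.06 (SE 0.08).

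Beside 3 other groups of housekeeping complexes, the cytosolic ribosomal protein genes stood nearest to 0. The mitochondrial ribosomal protein genes, which serve the separate ribosome of mitochondria, had a median of 0.13 over 77 tested genes, with 68 above 0 and 30 whose libraries did not overlap (28 with KO above). The proteasome subunit genes had a median of 0.13 over 37, with 33 above 0 and 13 with KO above. All 74 tested genes for nuclear-encoded respiratory chain subunits were above 0 (median 0.23), and in 60 every KO library lay above every WT library. These 3 medians stayed above 0 with total count scaling (0.05, 0.05 and 0.15) and with the offsets (0.07, 0.09 and 0.15). In each of the 3 groups edgeR called 0 genes over all genes, and unadjusted p-values below 0.05 were found in 10 of 77 (13.0%), 11 of 37 (29.7%) and 51 of 74 (68.9%), against 16.4% of all tested genes. The share of genes whose libraries did not overlap was 39.0%, 35.1% and 81.1%, against 23.4% of all tested genes. Differences between the groups of genes were not tested.

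**Figure D5:**
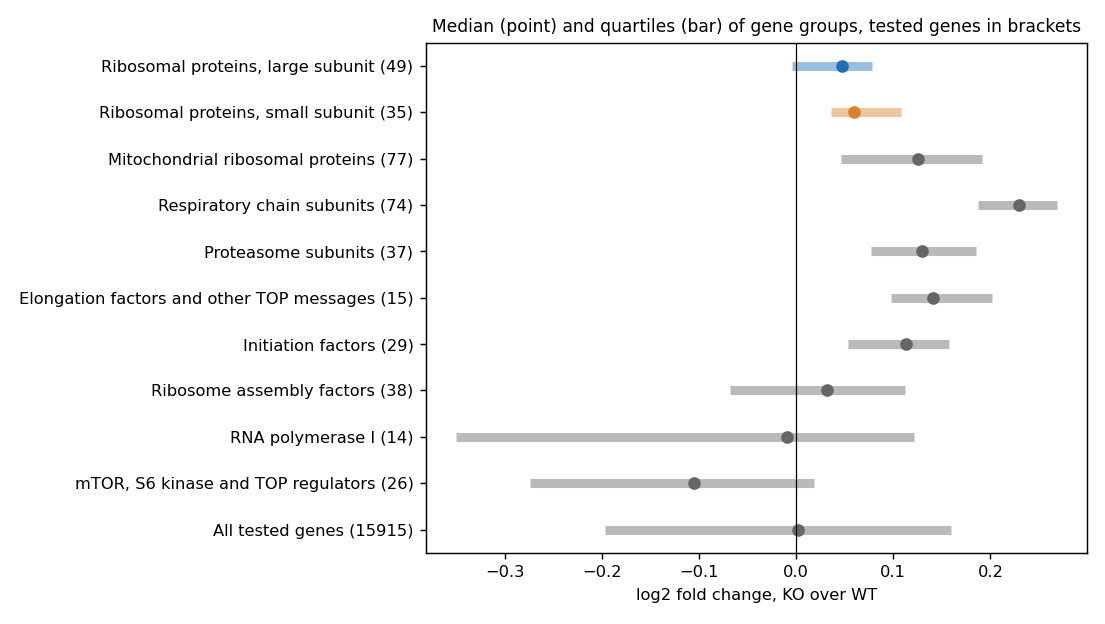
Median (point) and quartiles (bar) of the log2 fold change of KO over WT by gene group, with the number of tested genes in brackets. The large and small cytosolic ribosomal protein groups, at 0.05 and 0.06, lie between all tested genes (0.00) and the mitochondrial ribosomal, proteasome and respiratory chain groups (0.13 to 0.23). With length and GC offsets the cytosolic medians of -0.03 and -0.02 lie below all tested genes (0.00).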

How the data were processed

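RNA from isolated islets was sequenced in 3 KO and 3 WT libraries. Build mm9 and the tools HISAT2 2.1.0, CASAVA 1.8.2, DESeq2 and HTSeq are named in the submitters' processing notes. The annotation, the counting options and the use of strand are not stated in any source at hand, so reads of overlapping or antisense genes cannot be told apart. The deposited table holds the authors' raw read counts per gene, without normalization. All 6 columns were matched by name, with 0 left over.

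The analysis used edgeR 4.0.16 under R 4.3.3: filterByExpr, TMM scaling and the quasi-likelihood F-test of KO against WT over 15915 genes, adjusted by Benjamini-Hochberg. Log2 fold changes are KO over WT, and CPM are counts per TMM-scaled library total. The procedure was checked on simulated counts. The members and gene lists were chosen with earlier results of these data known. Named were the 8 highest and 8 lowest fold changes, the 4 highest and 4 lowest levels per kilobase, paralogs with their parents, stalk proteins, Rpsa and the first 4 tested genes of each list. Other genes were chosen after their values were seen: members whose groups did not overlap, those with large variation between libraries, their copies, Larp1, Rps6kb1, Rheb and the non-overlapping polymerase I and initiation factor genes.

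Coordinates, transcript and exonic lengths came from GENCODE vM1 on mm9 (86 members matched by symbol), and copies from megablast (BLAST+ 2.17.0). Alternatives were DESeq2 1.42.0, limma-voom (limma 3.58.1), robust empirical Bayes, other scalings, filters and covariates, per-library length and GC offsets (mgcv 1.9.3), a replicate block and leaving out each library. Totals of 25733194 to 27285009 counts set the counting precision, and intervals and floors cover counting error only where they rest on single counts. Some items that the naming rule covers are not reported here.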

Additional observations from a re-analysis of the deposited data

How the results depend on the processing

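Under all 19 alternatives run 0 ribosomal protein genes were called. Where 0 of all genes were called, this could not have come out otherwise. All genes called, 27 in the test reported, became 553 with DESeq2 and 120 with total count scaling. They became 0 with limma-voom, the acinar covariate, the replicate block or the length and GC offsets. Without KO replicate 1 they were 5 and without WT replicate 3 they were 89. Leaving out any other single library gave 0. The median over members was -0.021 with length and GC offsets (large subunit -0.035, small subunit -0.015) and -0.024 with total count scaling (large -0.031, small -0.017). With the sex covariate, a fit that sets KO replicate 1 alone against WT, it was 0.12 (large 0.088, small 0.15, large minus small -0.062). Leaving out single libraries gave medians of 0.018 to 0.082. The difference in the share of counts, KO minus WT, was -0.022 percentage points and became 0.061 when the 10 most abundant genes left the total. Summing members with their near-identical copies was chosen after seeing the data and gave a median of 0.053.

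Log2 fold changes of named members that changed sign were all uncalled before and after. With length and GC offsets these were Rpl22 at -0.011, Rpl22l1 at -0.021, Rpl39 at -0.037, Rpl7l1 at -0.060, Rplp2 at -0.042, Rps19 at 0.0095, Rps24 at -0.12, Rps27l at -0.019, Rps4x at -0.030 and Rpsa at -0.024. Total count scaling lowered all genes together, to an all-gene median of -0.075 in place of 0.0023, and with it they were Rpl22 at -0.052, Rpl7l1 at -0.072, Rplp0 at -0.027, Rplp2 at -0.040, Rps24 at -0.029 and Rpsa at -0.024. With the acinar covariate Rplp0 was at -0.024 and Rps19 at 0.030, with the sex covariate Rpl3 was at -0.024 and Rplp0 at -0.56, and with at least 1 CPM in 3 libraries Rpl7l1 was at -2.0e-05. Over the fits without single libraries, values ran from -0.22 to 0.034 for Rpl17, -0.018 to 0.086 for Rpl22, -0.13 to 0.088 for Rpl35a, -0.0087 to 0.14 for Rpl39, -0.057 to 0.053 for Rpl7l1, -0.14 to 0.28 for Rplp0, -0.033 to 0.089 for Rplp2, -0.17 to 0.039 for Rps19, -0.65 to 0.018 for Rps2, -0.0090 to 0.10 for Rps24 and -0.38 to 1.08 for Rps3a3. The causes of the other changes of sign were not tested.

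The labels do not say whether the replicate numbers pair the libraries. Deviations from the group means correlated at 0.18, 0.058 and 0.032 over 15915 genes for numbers 1, 2 and 3. Libraries of unlike number were not compared in this way, so pairing was not tested. The mean acinar level fell from replicate 1 to 3 in KO (9.14, 8.57 and 7.70 on the log2 CPM scale) and in WT (10.05, 9.03 and 8.31). With the replicate block 0 genes were called and the median over members was 0.053.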
